A study of Mus musculus with 8 samples.

Results

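Genes of glucose metabolism were followed in CD8 T cells of mice labelled WT and of mice labelled IL-2-KO. The genes were chosen by name, as the steps of glycolysis, lactate formation and export, the pentose phosphate pathway and the pyruvate dehydrogenase complex, with the kinases that regulate them. Of the 34 genes listed, 32 had a row among the 11723 genes of the deposited table, and all 32 were expressed highly enough to be tested. Aldoc and G6pdx were not analysed here.

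BALB/c mice aged 12 days gave the cells, CD8 T cells taken from peripheral lymph nodes by flow sorting. The WT group held 4 libraries and the IL-2-KO group, whose mice lack interleukin-2, held 4, with no treatment in either. WT libraries came from pools of 5, 5, 3 and 2 mice (replicates 1 to 4), and pooling is not stated for IL-2-KO. The series' design text adds spleen as a source and WT/HET as the control genotype; the sample labels name neither, so heterozygous and WT mice cannot be told apart here.

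Glycolysis splits glucose into pyruvate in the cytosol and yields ATP, and lactate dehydrogenase regenerates the NAD+ that it uses. The pentose phosphate pathway leaves glycolysis at glucose 6-phosphate and supplies NADPH and ribose for nucleotides, and the pyruvate dehydrogenase complex feeds pyruvate into mitochondria as acetyl-CoA. Resting T cells run these steps at a low rate, and activated CD8 T cells raise glucose uptake and lactate output; interleukin-2 is among the signals known to sustain that state.

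Levels are in CPM, counts per 1e6 after the authors' TMM scaling, on a linear scale. Recovered counts over the listed genes were 11.9 to 18.4 M (1e6) per library, so a value of 1 CPM rested on 11.9 to 18.6 counts. The thinnest member was Slc16a3 with 23 to 88 counts per library; Hk2 had 84 to 317, Pfkfb4 104 to 176 and Ldhb 104 to 186. All values are shares of the RNA counted in a bulk sample, in which fewer cells expressing a gene and less RNA per cell cannot be told apart. Il2 itself does not check the genotype labels: the level was 5.65 to 6.25 in WT and 4.25 to 8.42 in IL-2-KO, a log2 difference of 0.04 (95% interval -0.40 to 0.49, exact permutation p = 0.857, two-sided, 4 libraries per group). The deleted part of Il2 is not stated in the sources used here.

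Markers of CD8 T cells marked every library, with a summed level over 6 of 7 listed markers of 5370 to 6240 CPM in WT and 4638 to 5416 in IL-2-KO. Myeloid and dendritic markers (9 of 15 measured) summed to 126, 479, 114 and 116 CPM in WT replicates 1 to 4 and to 208, 192, 1254 and 160 in IL-2-KO replicates 1 to 4. WT replicate 2 and IL-2-KO replicate 3 therefore stood apart, and results without both are given below. Natural killer cell markers (5 of 6 measured) summed to 110 to 162 CPM in WT and 329 to 612 in IL-2-KO, and 20 of 20 proliferation genes to 981 to 1098 and 2186 to 2668. CD4 and regulatory T cell markers (6 of 6) summed to 16.4 to 99.2 CPM in WT and 67.9 to 243 in IL-2-KO, and B cell markers (2 of 8) to at most 33.0. Single markers did not all follow their sums. In the limma fit described below, Klrc1, Klre1, Eomes and Gzma were higher in IL-2-KO and Klrb1c did not pass. Ctla4 was higher, and the other 5 CD4 and regulatory markers did not pass, with Foxp3 at a log2 difference of -0.43. Of the CD8 markers, Thy1 was lower, at a log2 difference of -0.50 (adjusted p = 0.00117 by limma). The other 5 did not pass, and 0 of the 6 differences were positive. Of the myeloid and dendritic markers, Ctss was higher and 8 did not pass. All 20 proliferation genes were higher. The sums are therefore not counts of cells. The part of other cell types and of proliferation in the results on glucose metabolism was not tested.

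RNA of 8 of the 13 glycolytic enzyme genes made up a larger share of the counts in IL-2-KO than in WT libraries. Of these 8, Aldoa and Pgk1 did not pass in several alternative fits. Slc2a1, Slc2a3 and the 4 genes of the pyruvate dehydrogenase complex did not pass. Of the 32 genes tested, 11 were higher in IL-2-KO by limma, with p-values adjusted by Benjamini-Hochberg over all 11530 genes tested and a threshold of 0.05, and 1, Pdk1, was lower. The 11 make up 34.4% of the members; of all genes tested 19.2% were called, 11.1% as higher and 8.03% as lower. The IL-2-KO libraries all lay above the WT libraries for 13 members, where 12.9% of all genes did, and all below for Pfkfb4, where 11.2% of all genes did. Changes were moderate: among the 11 risers the fold ran from 1.25 (Rpe) to 1.86 (Hk2). The median log2 change was 0.18 over the 32 genes and -0.0097 over all genes tested.

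The RNA of the 32 genes together came to 3438, 3406, 3217 and 3276 CPM in WT replicates 1 to 4, and to 4030.2, 4001, 4179 and 4011 in IL-2-KO replicates 1 to 4. Their share of the total was 0.334% in WT and 0.405% in IL-2-KO, and the groups did not overlap. Most of the increase was in the 13 glycolytic enzymes, which summed to 1677 ± 50.9 CPM (SD, n = 4) in WT and 2168 ± 76.6 in IL-2-KO. Lactate dehydrogenases and exporters (4 genes) summed to 438 ± 34.0 and 564 ± 30.5, and the 6 pentose phosphate genes to 547 ± 15.9 and 662 ± 12.5. The 4 pyruvate dehydrogenase genes summed to 375 ± 8.47 in WT and 369 ± 9.20 in IL-2-KO, a difference smaller than the SD of either group.

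**Figure D1:**
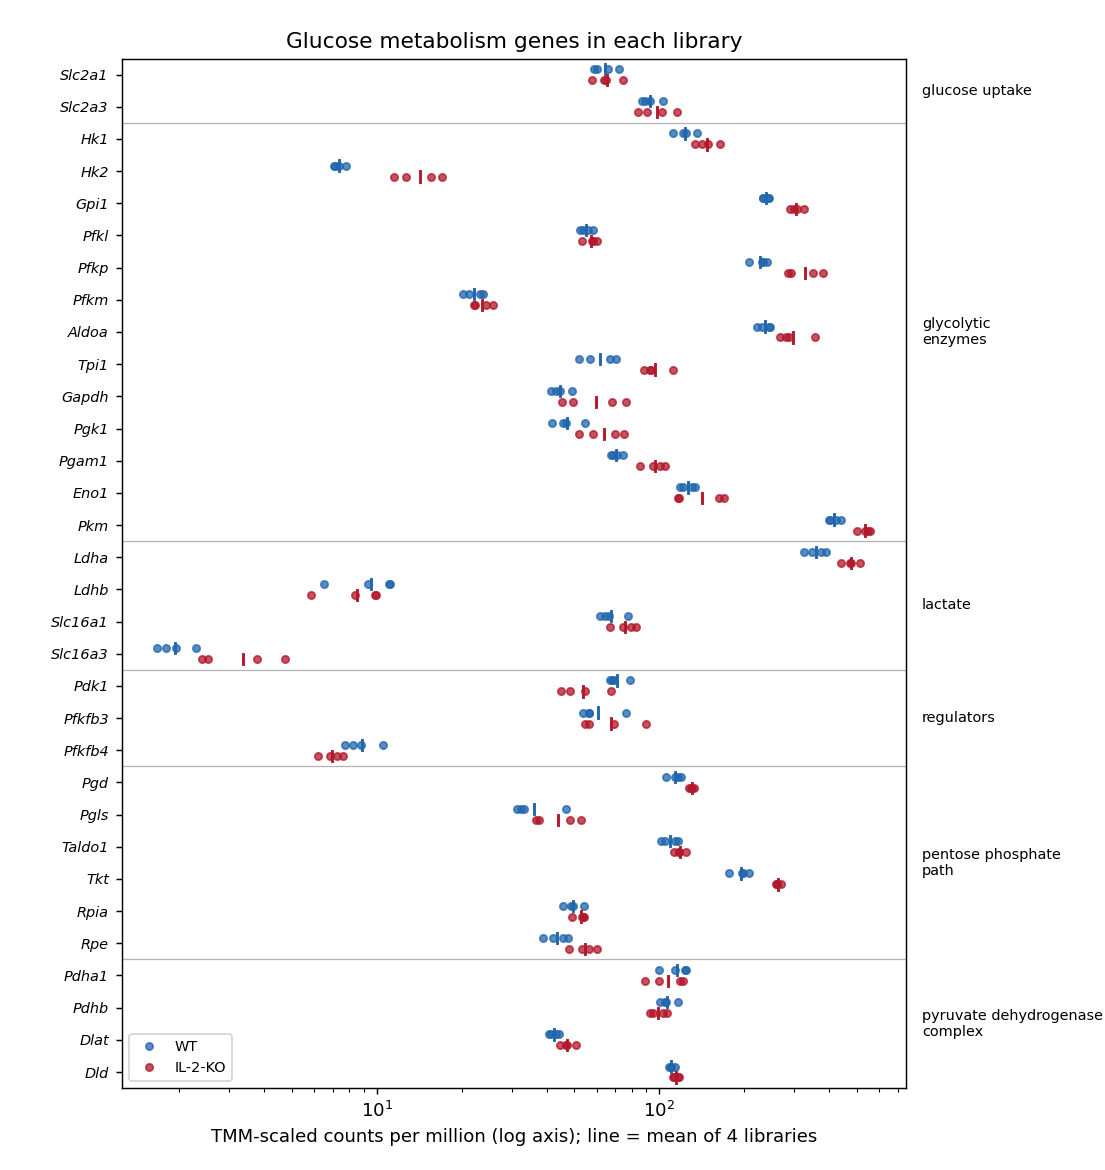
Level of each of the 32 genes in every library, in CPM on a log axis, ordered by step of the pathway; points are libraries (4 WT, 4 IL-2-KO) and bars the group means. Pkm and Ldha are the most abundant transcripts, and the IL-2-KO points lie above all WT points for 13 genes and below all of them for Pfkfb4.

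**Figure D2:**
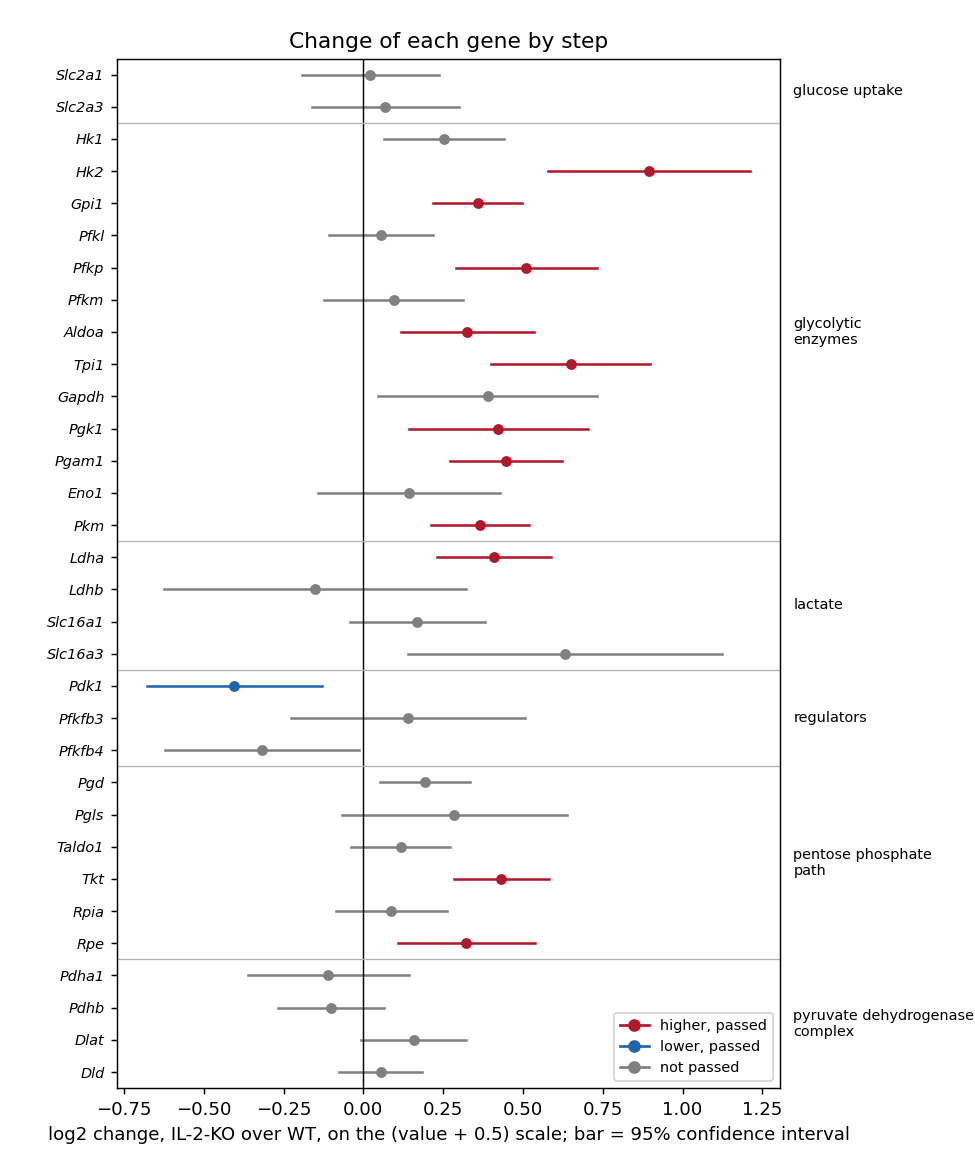
Difference between IL-2-KO and WT for each gene, as log2 of (CPM + 0.5), with 95% intervals from limma; genes that passed the adjusted threshold of 0.05 are marked. The 11 genes higher in IL-2-KO are 8 glycolytic enzymes, Ldha, Tkt and Rpe, and Pdk1 is the one lower.

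Promoters of 6 genes are shown as examples of where the core letters bound by E-box and hypoxia response factors occur: 4 genes that rose, Pdk1, which fell, and Slc16a1, which did not pass. They were picked for having matches and are not a sample of the members. Each run is the 250 bases before a RefSeq transcription start (GRCm38.p6), 5′ to 3′ on the gene's strand. Capitals mark the motif ACGTG, the motif GCGTG or the palindrome CACGTG, on the printed strand or on the other, where their letters appear reversed and complemented. Every CACGTG also counts as ACGTG.
Hk2, chr6:82774455-82774704, minus strand: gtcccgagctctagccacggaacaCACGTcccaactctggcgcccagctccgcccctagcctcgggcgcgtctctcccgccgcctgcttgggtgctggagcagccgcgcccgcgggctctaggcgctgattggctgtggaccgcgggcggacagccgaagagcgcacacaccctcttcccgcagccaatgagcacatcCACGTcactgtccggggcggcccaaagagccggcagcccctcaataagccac
Pgk1, chrX:106186850-106187099, plus strand: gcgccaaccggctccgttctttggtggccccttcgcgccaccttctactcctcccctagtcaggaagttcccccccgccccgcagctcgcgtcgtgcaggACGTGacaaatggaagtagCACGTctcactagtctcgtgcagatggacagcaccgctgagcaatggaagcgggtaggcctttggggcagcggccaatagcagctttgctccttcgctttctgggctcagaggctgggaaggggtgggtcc
Pgam1, chr19:41911621-41911870, plus strand: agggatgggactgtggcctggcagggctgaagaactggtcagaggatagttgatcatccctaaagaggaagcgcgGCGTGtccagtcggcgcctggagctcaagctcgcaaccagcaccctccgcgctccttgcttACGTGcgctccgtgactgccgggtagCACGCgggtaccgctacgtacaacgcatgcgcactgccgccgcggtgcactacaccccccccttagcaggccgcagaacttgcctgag
Ldha, chr7:46845554-46845803, plus strand: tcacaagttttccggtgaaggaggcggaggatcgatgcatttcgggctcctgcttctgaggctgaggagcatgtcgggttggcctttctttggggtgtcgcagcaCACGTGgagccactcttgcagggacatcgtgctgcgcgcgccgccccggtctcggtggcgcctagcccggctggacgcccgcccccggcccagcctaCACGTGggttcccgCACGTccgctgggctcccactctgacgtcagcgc
Pdk1, chr2:71872974-71873223, plus strand: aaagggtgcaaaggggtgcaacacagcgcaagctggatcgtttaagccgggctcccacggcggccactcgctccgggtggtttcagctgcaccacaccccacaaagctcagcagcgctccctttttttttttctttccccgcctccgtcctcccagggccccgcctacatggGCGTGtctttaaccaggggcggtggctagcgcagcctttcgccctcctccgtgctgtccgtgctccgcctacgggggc
Slc16a1, chr3:104638414-104638663, plus strand: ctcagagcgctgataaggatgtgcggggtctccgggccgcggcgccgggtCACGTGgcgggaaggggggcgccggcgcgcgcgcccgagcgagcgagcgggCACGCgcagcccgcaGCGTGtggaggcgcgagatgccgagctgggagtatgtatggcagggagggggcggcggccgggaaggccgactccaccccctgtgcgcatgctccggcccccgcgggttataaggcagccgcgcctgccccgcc
The Ldha window lies inside the Ldha gene, in an intron of a longer annotated transcript; no exon or other gene overlaps the windows of Hk2, Pgk1, Pgam1 and Slc16a1, and the last few bases of the Pdk1 window reach the start of the gene as RefSeq lists it.

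RefSeq start sites were found for 31 of the 32 members, with 44 windows in all, several of them from the same gene. ACGTG occurred in 34.1% of these windows (12 of 31 members), in 21.9% of the 11895 windows of genes in the deposited table and in 16.6% of all 32851 windows. GCGTG occurred in 54.5% of member windows (21 members), 44.7% of those of listed genes and 28.2% of all. CACGTG occurred in 9.09% of member windows (4 members), 8.42% and 6.02%. By call, ACGTG occurred in 6 of the 11 risers and 6 of the other 20 members with a window, GCGTG in 4 and 17, and CACGTG in 1 and 3. Gpi1, Tpi1 and Rpe rose and held 0 matches. These counts carry no test, and letter matches in a fixed window give no information on binding.

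No gene of glucose entry passed the test. Slc2a1 encodes the transporter GLUT1 and Slc2a3 encodes GLUT3, the high-affinity carrier of lymphocytes and neurons. Slc2a1 (chr4:119108745-119137330) read 66.0, 71.9, 60.2 and 58.6 CPM in WT replicates 1 to 4 and 63.8, 57.9, 74.3 and 64.8 in IL-2-KO replicates 1 to 4. The ranges overlapped, with a log2 difference of 0.02 (SE 0.0970, adjusted p = 0.901) and a 95% interval of -0.19 to 0.24. Slc2a3 (chr6:122727809-122802363) read 103, 89.4, 87.1 and 92.8 CPM in WT and 90.4, 116, 84.4 and 102 in IL-2-KO, also overlapping, with a log2 difference of 0.07 (SE 0.103, adjusted p = 0.687). Its 95% interval was -0.16 to 0.30. Per kilobase of exon, Slc2a3 stood at 23.5 in WT and 24.8 in IL-2-KO and Slc2a1 at 19.7 in WT and 20.01 in IL-2-KO, so GLUT3 RNA made up 54.4% ± 2.76 of the pair in WT and 55.2% ± 5.76 in IL-2-KO (SD, n = 4).

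Hexokinase traps glucose as glucose 6-phosphate, and the form that rose was the inducible one. Hk2 (chr6:82725025-82774454) read 7.36, 7.08, 7.09 and 7.78 CPM in WT and 15.6, 11.5, 17.05 and 12.7 in IL-2-KO. Every IL-2-KO library lay above every WT library, and the log2 change of 0.90 (SE 0.142, adjusted p = 0.0019) was the largest among the 32 genes. Hk1 (chr10:62268855-62379920), the constitutive hexokinase bound to mitochondria, read 136, 112, 122 and 124 CPM in WT and 141, 165, 134 and 148 in IL-2-KO. WT replicate 1 lay above IL-2-KO replicate 3, and the log2 difference of 0.25 (SE 0.0844, adjusted p = 0.0636) did not pass; without IL-2-KO replicate 3 it did (adjusted p = 0.0489), as it did under quantile normalization, array weights and removal of GC and length trends. Hk1 remained the main form by RNA: per kilobase of exon, Hk2 was 4.90% ± 0.326 of the pair in WT and 7.80% ± 1.87 in IL-2-KO (SD, n = 4), with 8.72, 5.70, 9.89 and 6.89 in IL-2-KO replicates 1 to 4.

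Gpi1, the isomerase that makes fructose 6-phosphate (chr7:34201327-34230336), read 233, 233, 243 and 244 CPM in WT and 289.7, 299, 308 and 326 in IL-2-KO. The groups were well apart, with a log2 change of 0.36 (SE 0.0633, adjusted p = 0.00354). Phosphofructokinase, the main control point of glycolysis, is built from the products of Pfkl, Pfkp and Pfkm, and of these Pfkp passed. Pfkp (chr13:6579874-6649060) read 241, 233, 208 and 231 CPM in WT and 294, 349.7, 286 and 379.8 in IL-2-KO, a log2 change of 0.51 (SE 0.09997, adjusted p = 0.00603). IL-2-KO replicates 2 and 4 were the higher ones, and replicates 1 and 3 still exceeded all WT libraries. Pfkl was 55.2 ± 2.63 in WT and 57.4 ± 2.92 in IL-2-KO (SD, n = 4; log2 difference 0.06 (SE 0.0729, adjusted p = 0.639)) and Pfkm 22.1 ± 1.65 in WT and 23.6 ± 1.80 in IL-2-KO (0.09 (SE 0.0983, adjusted p = 0.542)), and both overlapped between groups. Pfkp was already the leading subunit in WT, at 70.5% ± 1.61 of the 3 per kilobase of exon, and reached 76.4% ± 2.74 in IL-2-KO.

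Aldoa, the aldolase that cleaves fructose 1,6-bisphosphate (chr7:126795234-126800994), read 247, 231, 222 and 246 CPM in WT and 281, 267, 357 and 287 in IL-2-KO. The groups did not overlap, and the log2 change was 0.33 (SE 0.0938, adjusted p = 0.0361), with IL-2-KO replicate 3 well above the other libraries. This call was lost when that replicate was left out together with WT replicate 2. Tpi1, the triose phosphate isomerase (chr6:124810586-124814158), read 67.0, 70.3, 52.2 and 56.8 CPM in WT and 92.4, 93.5, 112 and 88.5 in IL-2-KO. All IL-2-KO libraries lay above all WT libraries, and the log2 change of 0.65 (SE 0.112, adjusted p = 0.00311) was the second in size among the genes called.

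The steps that yield ATP and pyruvate were uneven. Gapdh, which oxidises glyceraldehyde 3-phosphate and is often used as a reference gene (chr6:125161852-125166467), read 43.2, 49.1, 44.7 and 41.4 CPM in WT and 67.9, 45.5, 76.1 and 49.6 in IL-2-KO. IL-2-KO replicates 1 and 3 were high, replicate 2 lay inside the WT range, and the log2 difference of 0.39 (SE 0.155, adjusted p = 0.108) did not pass; without IL-2-KO replicate 2 (adjusted p = 0.0426) or with GC and length trends removed (0.0473) it did. Pgk1, which makes the first ATP of the pathway (chrX:106187100-106203699), read 45.8, 54.5, 46.7 and 41.7 CPM in WT and 69.5, 58.5, 75.1 and 52.0 in IL-2-KO, a log2 change of 0.42 (SE 0.126, adjusted p = 0.0413). It passed although IL-2-KO replicate 4 lay below WT replicate 2.

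Pgam1, the phosphoglycerate mutase (chr19:41911871-41918665), read 67.5, 68.8, 74.6 and 71.0 CPM in WT and 94.7, 85.7, 105 and 100.3 in IL-2-KO, with no overlap and a log2 change of 0.45 (SE 0.0791, adjusted p = 0.00353). Eno1, the enolase that follows it, was 126 ± 7.09 in WT and 142 ± 28.4 in IL-2-KO (SD, n = 4). Its log2 difference of 0.14 (SE 0.128, adjusted p = 0.471) did not pass. IL-2-KO replicates 1 and 3 were above all WT libraries for Eno1 and replicates 2 and 4 below all of them. Eno1b, an enolase row outside the member list, stood above Eno1, at 255 ± 21.5 CPM in WT. In IL-2-KO replicates 1 to 4 Eno1b read 283, 293, 273 and 305, lower in replicates 1 and 3 than in 2 and 4. Its log2 difference of 0.18 (SE 0.0766, adjusted p = 0.123) did not pass. Pkm, the pyruvate kinase gene (chr9:59656576-59679372), gave the most abundant transcript of the 32 by CPM. It read 439, 423, 401 and 399.5 CPM in WT and 536, 547, 559.7 and 502 in IL-2-KO, with no overlap and a log2 change of 0.37 (SE 0.0691, adjusted p = 0.00493). The table has 1 value per gene, so the M1 and M2 splice forms of Pkm are not separated here. In all, 8 of the 13 glycolytic enzyme genes rose, 0 fell and all 13 differences were positive, with a median log2 of 0.37. The count was 6 without WT replicate 1, 3 or 4 and with sorted cell number as a covariate, where Aldoa and Pgk1 did not pass, and 10 with GC and length trends removed, where Gapdh and Hk1 also passed.

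Lactate dehydrogenase A converts pyruvate to lactate, and its RNA rose; the B form, which favours the reverse reaction, was low in both groups. Ldha (chr7:46842274-46855627) read 373, 389, 326 and 348 CPM in WT and 514, 479, 474 and 439.6 in IL-2-KO. The groups did not overlap, and the log2 change was 0.41 (SE 0.0806, adjusted p = 0.00626). Ldhb (chr6:142490249-142507957) read 11.1, 11.1, 9.33 and 6.51 CPM in WT and 9.87, 8.36, 9.93 and 5.84 in IL-2-KO, with overlap and a log2 difference of -0.15 (SE 0.213, adjusted p = 0.659). Per kilobase of exon, Ldhb was 3.69% ± 0.7005 of the pair in WT and 2.51% ± 0.455 in IL-2-KO (SD, n = 4).

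The monocarboxylate transporters carry lactate across the membrane. Slc16a1 (MCT1) was 67.6 ± 7.08 in WT and 75.9 ± 6.76 in IL-2-KO CPM (SD, n = 4), with a log2 difference of 0.17 (SE 0.0952, adjusted p = 0.246). Slc16a3 (MCT4), the exporter of highly glycolytic cells, was low: 1.80, 1.94, 1.67 and 2.29 CPM in WT and 3.75, 2.53, 4.73 and 2.40 in IL-2-KO. All IL-2-KO libraries lay above all WT libraries, but replicates 2 and 4 only narrowly, and the log2 difference of 0.63 (SE 0.221, adjusted p = 0.0732) did not pass; without IL-2-KO replicate 4 (adjusted p = 0.0469) or with GC and length trends removed (0.0488) it did.

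Of the 3 kinase genes that steer carbon flow, the one that passed was lower in IL-2-KO. Pdk1, a kinase that phosphorylates and switches off pyruvate dehydrogenase (chr2:71873215-71903858), read 68.3, 66.8, 69.0 and 78.9 CPM in WT and 48.5, 54.6, 44.8 and 67.7 in IL-2-KO. The log2 change was -0.40 (SE 0.123, adjusted p = 0.0446); IL-2-KO replicate 4 lay inside the WT range and the other 3 below it. Pdk1 passed without 1 library only when IL-2-KO replicate 4 was the one left out, and it did not pass once the pair of libraries rich in myeloid RNA was removed. Pfkfb3 and Pfkfb4 make fructose 2,6-bisphosphate, the activator of phosphofructokinase. Pfkfb3 was 60.6 ± 10.4 in WT and 67.5 ± 16.2 in IL-2-KO CPM (SD, n = 4) with a log2 difference of 0.14 (SE 0.165, adjusted p = 0.598). Pfkfb4 was 7.73 to 10.5 in WT and 6.20 to 7.57 in IL-2-KO; its groups did not overlap, yet the log2 difference of -0.32 (SE 0.137, adjusted p = 0.134) did not pass.

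The 2 pentose phosphate genes that passed, Tkt and Rpe, belong to the non-oxidative branch, which links ribose 5-phosphate to glycolysis. Tkt, the transketolase that moves carbon pairs between sugars (chr14:30549131-30574724), read 208, 177, 198 and 196 CPM in WT and 261, 260.1, 269 and 260.3 in IL-2-KO. The IL-2-KO libraries were close to each other and all above WT, and the log2 change was 0.43 (SE 0.0673, adjusted p = 0.00172), the smallest adjusted p of the 32 genes. Rpe, the ribulose phosphate epimerase (chr1:66700797-66719805), read 41.9, 38.8, 45.6 and 47.4 CPM in WT and 53.2, 56.5, 48.0 and 60.1 in IL-2-KO. IL-2-KO replicate 3 lay just above the highest WT library, and the log2 change was 0.32 (SE 0.0965, adjusted p = 0.0417).

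Taldo1, the transaldolase that works with Tkt, was 109 ± 7.23 in WT and 118 ± 4.83 in IL-2-KO (log2 difference 0.12 (SE 0.0701, adjusted p = 0.28)), and Rpia, the ribose phosphate isomerase, was 49.6 ± 3.44 in WT and 52.7 ± 2.32 in IL-2-KO (0.09 (SE 0.0777, adjusted p = 0.469)). In the oxidative branch Pgd, a source of NADPH, was 106 to 119.8 in WT and 128 to 133 in IL-2-KO, without overlap, and its log2 difference of 0.19 (SE 0.0634, adjusted p = 0.0583) did not pass. Pgls, the lactonase before it, was 35.9 ± 7.26 in WT and 43.9 ± 8.02 in IL-2-KO CPM (SD, n = 4) with a log2 difference of 0.28 (SE 0.158, adjusted p = 0.24). Of the 6 pentose phosphate genes 2 rose, 0 fell and 4 did not pass; with any 1 library but IL-2-KO replicate 3 left out, or with libraries centred on their median, Rpe did not pass and the count was 1. Among the other pentose phosphate genes 2 of 5 tested were lower, Rbks and H6pd, and 0 higher. The groups overlapped for H6pd. Of all genes tested 11.1% were called higher and 8.03% lower.

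None of the 4 genes of the pyruvate dehydrogenase complex passed. Pdha1, the catalytic alpha subunit (chrX:160122219-160138430), read 124, 99.8, 125 and 114 CPM in WT and 99.8, 122, 89.4 and 119 in IL-2-KO. The groups overlapped and the log2 difference was -0.11 (SE 0.114, adjusted p = 0.542), with a 95% interval of -0.36 to 0.14. Its partner Pdhb was 107 ± 6.77 in WT and 99.4 ± 6.45 in IL-2-KO (-0.10 (SE 0.0748, adjusted p = 0.382)). Dld, the dihydrolipoamide dehydrogenase shared with other complexes, was 110.5 ± 2.47 in WT and 115 ± 2.99 in IL-2-KO (0.05 (SE 0.0585, adjusted p = 0.56)). Dlat, the acetyltransferase core, was 40.7 to 44.1 in WT and 44.7 to 50.7 in IL-2-KO; all IL-2-KO libraries lay above WT, and the log2 difference of 0.16 (SE 0.0743, adjusted p = 0.169) did not pass.

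The balance between alternative forms of a step was compared within each library as a log2 ratio of (CPM + 0.5), with an exact two-sided permutation test of 4 against 4 libraries. The smallest p that this design allows is 0.0286. Hk2 over Hk1 was higher in IL-2-KO by a log2 of 0.64 (SE 0.193) and Pfkp over Pfkl by 0.46 (SE 0.146). Both pairs separated the groups fully, with an exact permutation p of 0.0286 each, which adjusted over the 7 ratios was 0.1. Ldha over Ldhb was higher by 0.56 (SE 0.198, exact permutation p = 0.0857, adjusted 0.200) and Slc16a3 over Slc16a1 by 0.46 (SE 0.226, exact permutation p = 0.114, adjusted 0.200). Pfkfb4 over Pfkfb3 differed by -0.46 (SE 0.228, exact permutation p = 0.143, adjusted 0.200). For Slc2a3 over Slc2a1 the difference was 0.05 (SE 0.186) and for Pfkm over Pfkl 0.04 (SE 0.0964). None of the 7 passed after adjustment. Hk2 over Hk1 and Pfkp over Pfkl could not have passed with the other ratios as they were, since both already had the smallest p.

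**Figure D3:**
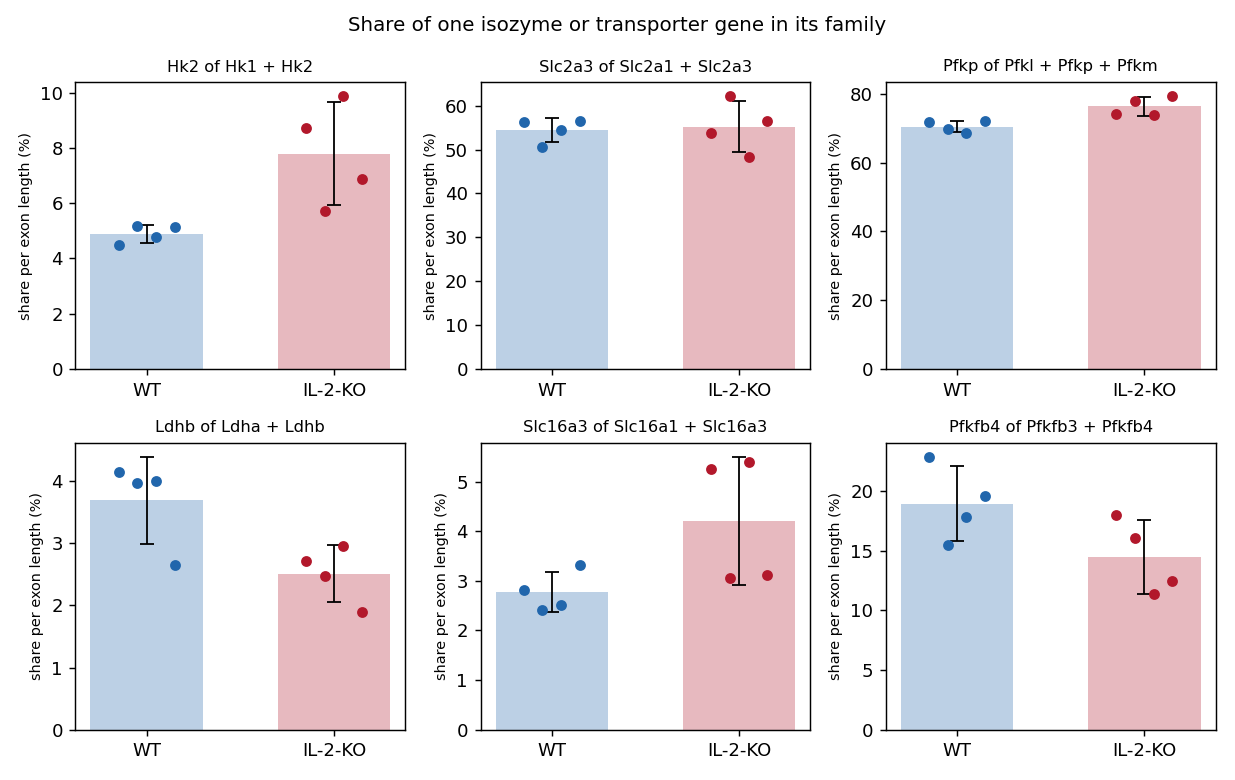
Share of one form within its family in each library, in percent of the summed CPM per kilobase of exon; points are libraries, bars group means and error bars the SD (n = 4). The share of Hk2 and of Pfkp is higher in all 4 IL-2-KO libraries than in any WT library, and the shares of Slc2a3 overlap.

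The members did not vary together from library to library. Within the IL-2-KO group, Gapdh, Eno1, Pgk1, Hk2, Slc16a3 and Pgls were higher in replicates 1 and 3 than in 2 and 4, while Pfkp, Hk1, Pdk1, Slc2a3, Pdha1 and Rpe ran the other way. Deviations from the group mean, over the 8 libraries, correlated with those of Gapdh at 0.8 or more for 7 members, with Eno1 at 0.94, Hk2 and Pgk1 at 0.88 and Dld at 0.87. They correlated at -0.7 or less for 6, with Pdha1 at -0.89, Slc2a3 at -0.88, and Hk1 and Pfkp at -0.80. These correlations describe 8 libraries whose values are all shares of 1 total, and carry no test. Replicates 1 and 2 came from 26.7 and 42.6 M sorted cells and replicates 3 and 4 from 1.1 and 0.4 M. Myeloid and dendritic markers summed to 208, 192, 1254 and 160 CPM in IL-2-KO replicates 1 to 4. The part of cell number and of myeloid RNA in the split of replicates 1 and 3 from 2 and 4 was not tested.

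**Figure D4:**
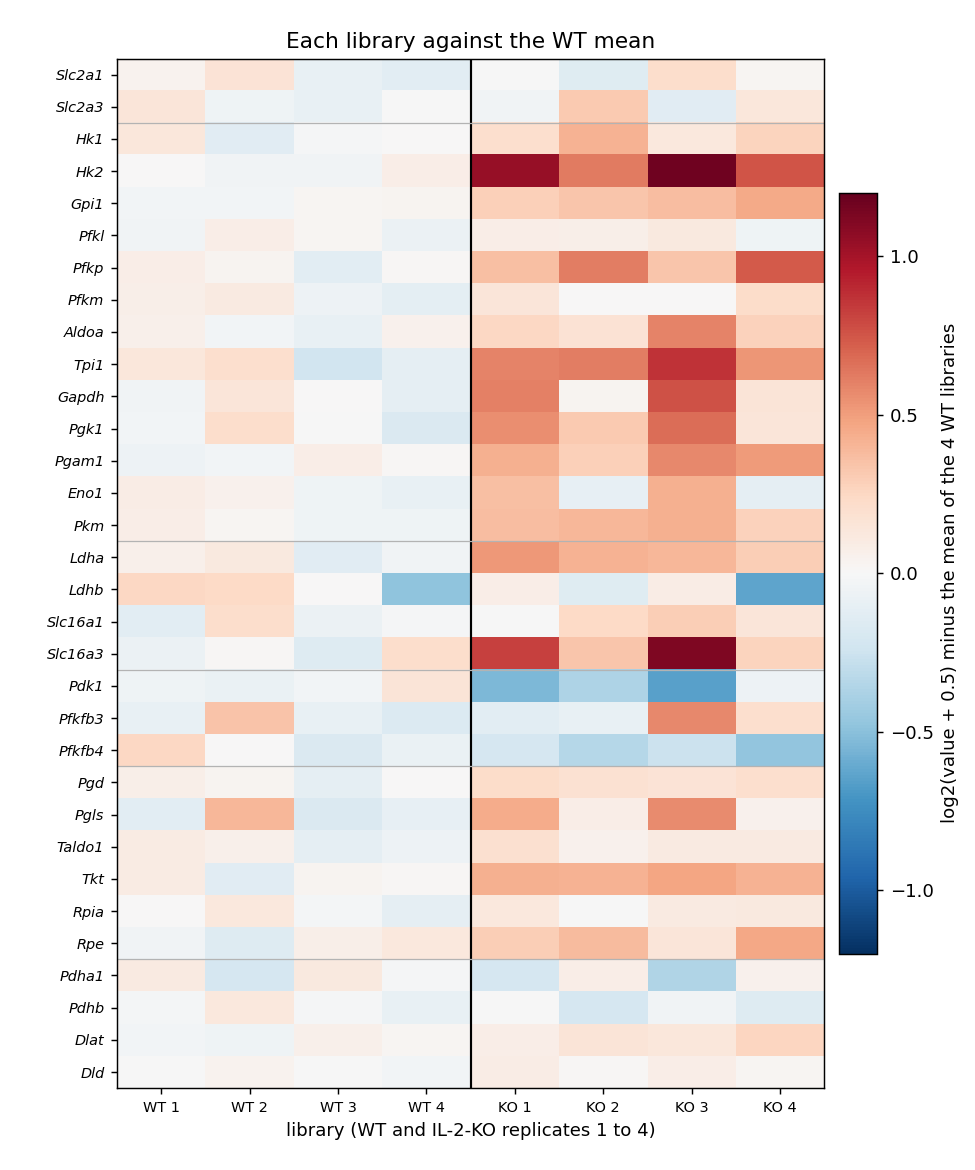
Deviation of each member from its WT mean in each library, as log2 of (CPM + 0.5), with libraries in columns and genes in rows by step. IL-2-KO replicates 1 and 3 are the higher ones for Gapdh, Eno1 and Pgk1, and replicates 2 and 4 for Pfkp and Hk1.

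Several of these genes share sequence with processed copies in the genome, which affects how their reads can be counted. Counts that were not whole in any of the 8 libraries, the form that shared reads take, occurred for 9 members: Hk1, Gpi1, Aldoa, Gapdh, Pgk1, Pgam1, Eno1, Pkm and Ldha. In the GENCODE M21 annotation, 148 pseudogenes matched Gapdh at 90% identity or more over at least 50% of its transcript. By the same limits 9 matched Ldha, 5 each matched Eno1 and Pkm, 3 matched Aldoa and 2 matched Pgk1. Gpi1, Ldhb, Taldo1 and Pdhb had 1 each and the other 22 members 0. Among the genes that rose, Gpi1, Aldoa, Pgk1, Pkm and Ldha had such copies and Hk2, Pfkp, Tpi1, Pgam1, Tkt and Rpe did not; the part of shared reads in the changes was not tested. The level of Gapdh, 44.6 ± 3.31 in WT and 59.8 ± 14.6 in IL-2-KO CPM, is therefore uncertain by an amount that the table does not give. The same holds for Eno1. Counts of the enolase row Eno1b, which is not a member, were not whole in 7 of the 8 libraries. How reads were divided between Eno1 and Eno1b was not tested.

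The calls differed in how far they rested on single libraries. With each library left out in turn, Hk2, Gpi1, Pfkp, Tpi1, Pgam1, Pkm, Ldha and Tkt passed in all 8 fits, Aldoa in 3, Pgk1 in 2, and Rpe and Pdk1 in 1. Aldoa was lost without any 1 WT library or without IL-2-KO replicate 3 (largest adjusted p by limma 0.112), Pgk1 without any library but WT replicate 2 or IL-2-KO replicate 4 (0.121), Rpe without any but IL-2-KO replicate 3 (0.102) and Pdk1 without any but IL-2-KO replicate 4 (0.130). With the pair of libraries richest in myeloid RNA removed, 10 of the 11 risers passed, Aldoa being the exception. All 11 had positive differences both in the 4 libraries of over 20 M sorted cells and in the 4 of under 2 M: Hk2 differed by 0.85 and 0.94 on the log2 scale, and Tpi1 by 0.44 and 0.86. For the 10 risers whose groups did not overlap, this sign was fixed by that separation and adds no evidence. In these subsets only Tpi1 passed, in the libraries of under 2 M.

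Other genes of glucose and pyruvate metabolism showed no common direction. Of 81 tested (104 listed), 10 were higher in IL-2-KO, 8 lower and 63 did not pass, beside 11.1% and 8.03% of all genes. The median log2 change was 0.06. The count of risers fell to 6 without WT replicate 1, 5 without WT replicate 3, 4 without WT replicate 4 and 5 without IL-2-KO replicate 2, and that of genes lower to 5 without WT replicate 3. In the tricarboxylic acid cycle 4 of 20 rose (Idh3a, Aco1, Sdhd and Mdh1) and 0 fell. Of these 20 differences 17 were positive, with a median log2 of 0.15. Among other glycolysis genes 1 of 12 rose and 2 fell.

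The 10 with the smallest adjusted p moved in both directions. Gpd2, the mitochondrial glycerol 3-phosphate dehydrogenase that hands cytosolic electrons to the respiratory chain, was 40.9 ± 1.37 in WT and 24.2 ± 3.77 in IL-2-KO CPM, a log2 change of -0.76 (SE 0.117, adjusted p = 0.00168). Rbks, the ribokinase, fell by a log2 of -0.66 (SE 0.107, adjusted p = 0.00225). Adpgk, an ADP-dependent glucokinase, was 151 ± 6.72 in WT and 116 ± 6.37 in IL-2-KO CPM (-0.38 (SE 0.0674, adjusted p = 0.00364)). Pfkfb2, a relative of Pfkfb3, changed by -0.40 (SE 0.0912, adjusted p = 0.0132), which no longer passed with WT replicate 3 left out (adjusted p = 0.0522). Galm, which interconverts the anomers of sugars, changed by 0.63 (SE 0.135, adjusted p = 0.00966) from a low level of 4.58 to 6.05 in WT and 7.60 to 8.86 in IL-2-KO CPM. Idh3a, a subunit of isocitrate dehydrogenase, changed by 0.31 (SE 0.0659, adjusted p = 0.00962).

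Among the other genes of pyruvate entry, 1 was higher and 1 lower. Pdk3, an isozyme of Pdk1, was 34.5 ± 2.71 in WT and 46.2 ± 2.40 in IL-2-KO CPM, a log2 change of 0.42 (SE 0.0848, adjusted p = 0.00722). Pdp1, a phosphatase that reactivates the complex, was 16.1 ± 1.42 in WT and 11.5 ± 0.663 in IL-2-KO (-0.47 (SE 0.109, adjusted p = 0.0135)). The other 9 of the 11 pyruvate entry genes tested did not pass, among them Pdk2, Pdp2, Pdpr and the mitochondrial pyruvate carrier genes Mpc1 and Mpc2. Calls in each direction were 1 of 11, near the shares among all genes given above.

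Transcription factors and sensors of the pathway were examined last. Hif1a, the oxygen-sensitive activator of many glycolytic genes, read 137, 141, 149.5 and 150.2 CPM in WT and 167, 224, 189 and 235 in IL-2-KO, without overlap, a log2 change of 0.48 (SE 0.106, adjusted p = 0.0106). Myc, another activator of these genes, was 208 ± 15.7 in WT and 185 ± 22.0 in IL-2-KO, and its log2 difference of -0.17 (SE 0.0943, adjusted p = 0.237) did not pass. Txnip, a glucose-induced protein that restrains glucose uptake, was 802 to 1039 in WT and 498 to 842 in IL-2-KO, overlapping, with a log2 change of -0.65 (SE 0.165, adjusted p = 0.0212). The Txnip call was lost without any 1 of WT replicates 1 and 3 and IL-2-KO replicates 1, 2 and 3, with an adjusted p of up to 0.0724 by limma. Mlxip, a glucose sensor that induces Txnip with its partner Mlx, changed by -0.39 (SE 0.0834, adjusted p = 0.00951). Tigar, which lowers fructose 2,6-bisphosphate, differed by 0.17 (SE 0.134, adjusted p = 0.406) and did not pass.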

How the data were processed

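RNA of sorted CD8 T cells was sequenced from 8 libraries (4 WT, 4 IL-2-KO; total RNA, stranded kit), per the labels' protocols. The deposited signal is TMM-scaled CPM, as the authors' table is titled; its columns summed to 988292 to 1022953. Tools named in the submitters' processing notes, with no roles, are R 3.4.3, limma 3.34.9 and featureCounts, and the genome builds are mm10 and GRCm38. The aligner and strand setting are not given in the sources used here. In every library 100% of values under 20 were multiples of a hundredth of a count (within 0.05 of a hundredth) and 54.6% to 65.0% were whole (within 0.001). Depth was recovered from these steps, and no count model was run on fractional counts. The planned test for CPM was kept for this unit.

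Entrez identifiers were matched to RefSeq names and coordinates of GRCm38 (11651 matched, 72 not). No pair of libraries of a group agreed within sampling noise (chi-square per gene 5.00 or more). Values were tested as log2(value + 0.5), which understates the change of low genes, for the 11530 genes with at least 1 in at least 4 libraries, with limma 3.58.1 in R 4.3.3 (empirical Bayes with a mean-variance trend, Benjamini-Hochberg over all genes tested), after a check on simulated data. Ratios were tested by exact permutation in Python 3.11.15, and pseudogene copies were searched with blastn 2.17.0. The number of libraries and the depth set the precision; no molecular identifiers are mentioned, so counts may include PCR duplicates. The labels give each library its own replicate number and the series calls them biological.

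The members, lists and tests were chosen with earlier results of these data known. Values in every library are given for members that passed and for Slc2a1, Slc2a3, Hk1, Hk2, Gapdh, Pkm, Ldha, Ldhb and Pdha1; of the other pathway genes, the 10 that passed with the smallest adjusted p are named, with Myc, Hif1a, Txnip and Tigar. Alternatives were pseudocounts of 0.1 and 2, no filter or one of at least 5, median and quantile scaling, a replicate block, sorted cell number as a covariate, array weights, removal of GC and length trends (known for 97.9% of genes) and subsets of libraries.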

Additional observations from a re-analysis of the deposited data

Results flagged for a closer look

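Among 78 groups of 4 libraries checked (each member and each ratio in each genotype), 5 held 1 library far from the other 3; chance flags about 1 in 20. In WT replicate 2, Pfkfb3 was 76.1 CPM beside 53.7 to 56.5 in the other WT libraries, and Pgls was 46.8 beside 31.4 to 33.2. That library also stood apart in myeloid markers (479 CPM summed, beside 114 to 126), whose part in these values was not tested. In IL-2-KO replicate 3, Tkt was 269 CPM beside 260.1 to 261.0, a small gap in a narrow range. In IL-2-KO replicate 2, Rpia was 49.2 CPM beside 53.4 to 54.2. The log2 ratio of Ldha over Ldhb was 5.63 in WT replicate 4 and 5.01 to 5.07 in the other WT libraries, where Ldhb read 6.51 CPM beside 9.33 to 11.1.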

How the results depend on the processing

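Over 21 alternative settings (20 planned, 1 added after seeing the data, the 4 libraries of under 2 M sorted cells), the 12 called members gave 252 values, of which 194 were the same in direction and call, 58 did not pass and 0 changed direction. Members higher in IL-2-KO numbered 8 to 11 with 1 library left out, and members lower 0 to 1; for all genes these ranges were 847 to 1249 and 437 to 935, lowest without WT replicate 3. Without both WT replicate 2 and IL-2-KO replicate 3, 10 members were higher and 0 lower. In subsets of 4 libraries few calls were left: with over 20 M sorted cells 0 members were higher and 0 lower (298 and 63 genes of all), and with under 2 M 1 (Tpi1) and 0 (319 and 85). Quantile normalization gave 2 lower members (Pdk1 and Pfkfb4) and lost Aldoa; centring libraries on their median lost Rpe. With sorted cell number as a covariate 8 members were higher, without Aldoa, Pgk1 and Rpe. With GC and length trends removed 14 were, with Gapdh, Hk1 and Slc16a3 added. Array weights gave 14 higher members, with Hk1, Pgd and Slc16a1 added, and 2240 higher and 2119 lower genes; the cause was not tested.

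The replicate numbers did not pair the samples: same-numbered libraries deviated from their group means with correlations of -0.53 to 0.39. With the replicate block 8 members were higher and 1 lower, without Aldoa, Pgk1 and Rpe, among 911 higher and 486 lower genes; among the other pathway genes 6 were higher and 4 lower, and Pfkfb2, Pdp1 and Txnip did not pass. WT replicate 1 correlated best with IL-2-KO replicate 2, not its own number.

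Differences that changed sign did not pass in any of these settings. Slc2a1 was -0.00621 after median centring, -0.00980 with array weights, -0.18 in libraries of over 20 M cells and -0.042 to 0.078 with 1 library left out. In libraries of over 20 M cells Pfkm was -0.012, Pfkfb3 -0.23, Rpia -0.00522 and the ratio of Pfkm over Pfkl -0.065. Eno1 was -0.00205 with array weights. With 1 library left out, Slc2a3 ran from -0.014 to 0.14, Pfkfb3 from -0.00736 to 0.25, Ldhb from -0.31 to 0.00668, Pfkm over Pfkl from -0.038 to 0.091 and Slc2a3 over Slc2a1 from -0.091 to 0.18; in libraries of under 2 M cells the last was -0.18. Depth limits Slc16a3 most, at 23 to 88 counts per library.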

Other observations

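The genes in this paragraph were chosen after their values were seen. Slc2a6, a lysosomal sugar transporter, had the largest change among the other pathway genes that passed: it read 0.180, 1.52, 0.288 and 0.301 CPM in WT replicates 1 to 4 and 3.28, 1.81, 5.54 and 1.34 in IL-2-KO replicates 1 to 4, a log2 change of 1.70 (SE 0.437, adjusted p = 0.0225) by limma, with overlapping groups. Within each group it was highest in the library richest in myeloid markers (WT replicate 2 and IL-2-KO replicate 3), whose part in this difference was not tested, and the lowest library held 3 counts. Txnip and Arrdc4, arrestins that are both induced by the glucose sensor Mlxip and its partner Mlx, moved in opposite directions: Arrdc4 read 16.9, 18.0, 23.5 and 18.0 CPM in WT and 21.1, 27.4, 27.0 and 29.0 in IL-2-KO, a log2 change of 0.44 (SE 0.137, adjusted p = 0.0469), and Txnip changed by -0.65 (SE 0.165, adjusted p = 0.0212). The groups overlapped for both genes, and the Txnip call was lost in 5 of the 8 fits with 1 library left out. H6pd, which begins the pentose phosphate pathway in the endoplasmic reticulum, read 52.9, 39.6, 55.6 and 58.0 CPM in WT and 36.3, 38.2, 33.5 and 40.6 in IL-2-KO, a log2 change of -0.46 (SE 0.124, adjusted p = 0.0284), with overlap. Gfpt1, the first step towards sugar nucleotides for glycosylation, was 46.7 ± 3.88 in WT and 64.2 ± 12.0 in IL-2-KO CPM (SD, n = 4), a log2 change of 0.44 (SE 0.132, adjusted p = 0.0423), with overlap.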
